A study of Homo sapiens with 6 samples.

Results

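Genomic regions that carried both 5-hydroxymethylcytosine (5hmC) and 5-methylcytosine (5mC) at both glucose levels were described in A2058, a human melanoma cell line made to overexpress wild-type TET2. Cells were cultured in high glucose or in normal glucose for 7 days, and all samples used here carry the transgene. DNA fragments with 5hmC were captured by hMeDIP and those with 5mC by MeDIP, each with an antibody to its base, and then sequenced. Each glucose level had 1 library per mark and 1 input, and the peak lists deposited for the 4 antibody libraries were used, on hg19. The rows of all 4 lists on chromosomes 1 to 22 and X were pooled, and rows that overlapped by at least 1 bp were joined into union regions. A union region was kept when rows of all 4 lists lay in it. This held for 23635 of 319166 union regions, or 7.41%. They are called regions with both marks below. They were selected on the authors' peak calls, that is on the presence of a row in every list, so the strength of their peaks is a description and not a finding. With 1 library per mark and glucose level no difference has a replicate check, and no p-value is given.

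5mC is written onto CpG cytosines by DNA methyltransferases. TET enzymes, TET2 among them, oxidise 5mC to 5hmC and further, so that 5hmC is both a step of active demethylation and a mark that can persist. In many tissues 5hmC is found in gene bodies and at enhancers, 5mC covers most of the genome outside active promoters and CpG islands, and melanomas are known for low 5hmC. Glucose is tied to TET2 through AMPK, a kinase of the cell's energy state that phosphorylates TET2 and stabilises it when glucose is low. MeDIP and hMeDIP enrich a mixture of molecules from many cells, so both marks at one place can come from the same DNA molecules, from the 2 alleles or from different cells.

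The lists gave no read numbers, but the fragment count at each summit and the count expected there could be worked out from the fold enrichment and p-value that the authors' lists give. The smallest expected count, taken as the background of a library, was 3.03 for 5hmC in high glucose and 2.64 in normal glucose, and 0.737 and 0.615 for 5mC. A 5mC peak could therefore rest on fewer fragments than a 5hmC peak. The shortest 5hmC row had 292 bp in high and 259 bp in normal glucose, and the shortest 5mC row 324 and 325 bp, so a minimal 5hmC peak is longer in the high-glucose list. Ranges in parentheses after shares are Wilson 95% intervals. They cover counting error only, since neighbouring regions, and reads without molecular identifiers, are not independent.

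Regions with both marks took up a larger part of the marked genome than their number would give. They covered 44.0 Mb, which was 20.1% of the length of all union regions. Their median width was 1454 bp, with quartiles at 982 and 2211 bp. Regions with 5hmC in both lists and no 5mC, of which there were 108421, had a median width of 579 bp. The 35914 regions with 5mC in both lists and no 5hmC had a median width of 586 bp. Here and below, no 5mC, without 5mC and 5hmC alone mean that no 5mC row lay in the region. The same holds for 5hmC. A missing row does not show that the mark was absent. Joining the rows of 4 lists widens a region, and 1 row of each list was the simplest case. It held for 16462 regions with both marks, or 69.7% (69.1 to 70.2), and their median width was 1157 bp. At the other end, 474 regions held 10 or more rows.

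The rows of all 4 lists overlapped in most of these regions. An overlap of rows does not place both marks on the same bases. A stretch of at least 1 bp lay in all 4 lists at once in 21116 regions, or 89.3% (88.9 to 89.7), and it was 396 bp long at the median. In 2519 regions, or 10.7%, rows of all 4 lists were linked in a chain without a base common to all of them. Several separate stretches common to the 4 lists lay within 1 region in 2788 cases. The rows inside the regions with both marks were 111160 of 593403, or 18.7% (18.6 to 18.8) of all rows of the 4 lists. By list, they held 15.0% of the high-glucose and 13.6% of the normal-glucose 5hmC rows, and 26.8% of the high-glucose and 29.4% of the normal-glucose 5mC rows. The lists differ in length, and with equal numbers of top rows the shares were 14.1% and 14.04% for 5hmC and 14.96% and 15.2% for 5mC in high and normal glucose. At a -log10 p of at least 10 the order of the 5hmC shares turned, with 10.01% in high and 11.01% in normal glucose. Seen from the other side, 16.9% (16.8 to 17.1) of the regions with 5hmC in both lists, and 34.4% (34.1 to 34.8) of those with 5mC in both lists, had both marks throughout.

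The overlap rule left a narrow border. The regions held together by the smallest overlap, 1 bp, lay on chromosome 1 from 110179253 to 110181313 and from 207996273 to 207997739, and on chromosome 4 from 2732756 to 2735415. Just outside, pairs of union regions that together had all 4 lists touched with a gap of 0 bp on chromosome 3 from 195480588 to 195481334, chromosome 5 from 149600828 to 149603290 and chromosome 8 from 37657591 to 37658750. The smallest overlap inside a region was under 10 bp in 97 regions and 369 bp at the median. Outside, 57 pairs of neighbours were kept apart by under 10 bp.

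Where each list had 1 row, the row of one mark was often inside that of the other, and the direction differed between the glucose levels. In high glucose the 5hmC row lay inside the 5mC row in 3886 of the 16462 regions, or 23.6%, and the 5mC row inside the 5hmC row in 18.1% (17.5 to 18.7). In normal glucose the shares were 21.1% (20.5 to 21.8) and 22.8% (22.2 to 23.5). Partial overlap was the commonest arrangement, at 53.1% in high and 51.9% in normal glucose. The rows of the 2 marks did not touch each other in 5.17% in high and 4.14% in normal glucose, and were linked only through a row of the other glucose level.

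Individual regions show these arrangements. The strongest region in all 4 lists, ranked by its lowest percentile of -log10 p in any list, lay on chromosome 7 from 2098148 to 2103865. Its strongest 5hmC row had a fold enrichment of 23.1 in high and 17.1 in normal glucose, and its strongest 5mC row 74.5 in high and 75.9 in normal glucose. The summits held 99 and 66 fragments of 5hmC and 166 and 161 fragments of 5mC, so each value rests on many fragments. 5hmC was listed there as 4 rows in high and 2 rows in normal glucose, against 1 and 2 rows of 5mC. The strongest 5hmC row peaked 842 bp from the strongest 5mC row in normal glucose. In high glucose 1 long 5mC row thus had several separate 5hmC peaks along its length, while in normal glucose each mark had 2 rows.

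**Figure D1:**
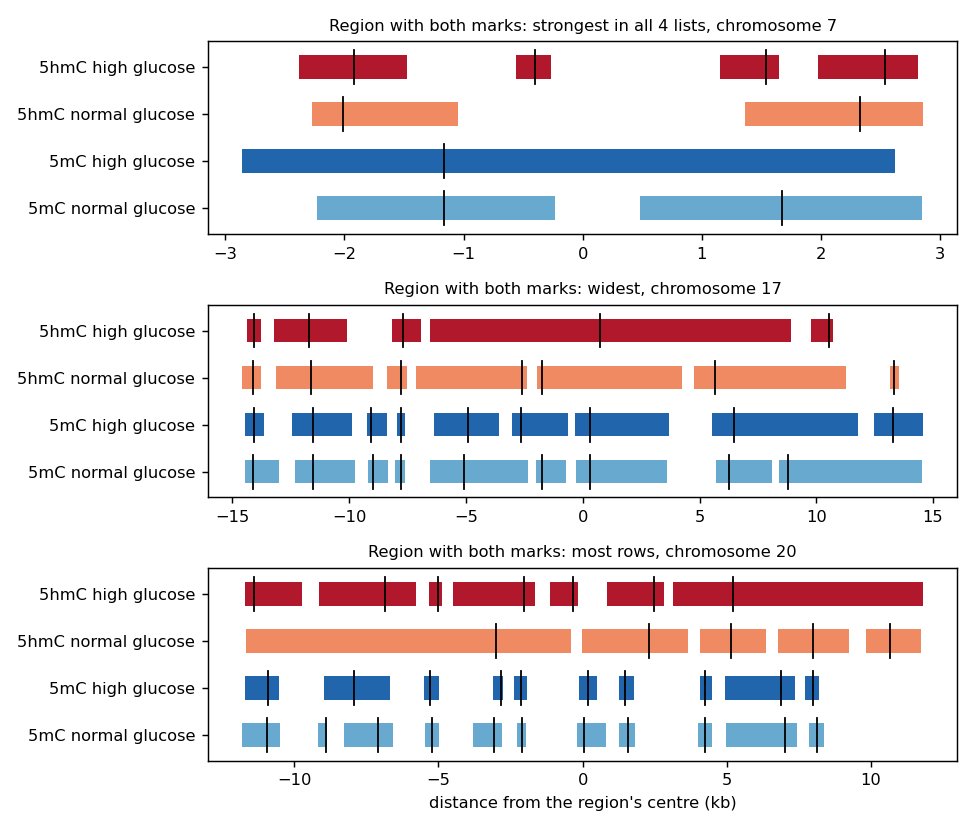
Rows of the 4 lists (bars) and their summits (black ticks) in 3 regions with both marks, by distance from the centre of the region in kb. In the region of chromosome 7 the 5mC summit of high glucose falls between 2 of the 4 5hmC rows, while the wide regions of chromosomes 17 and 20 are chains of 30 and 33 rows.

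The second strongest region, on chromosome 1 from 209943415 to 209945811, had 1 row in each list and 2034 bp common to all 4. Its 5hmC folds were 13.1 and 12.5 and its 5mC folds 44.6 and 42.0 in high and normal glucose. In high glucose its 5hmC and 5mC summits were 63 bp apart. The expected count there was 8.75 in the high-glucose 5hmC list, well above the background of 3.03. The third, on chromosome 9 from 138727816 to 138731149, had 3135 of its 3334 bp in all 4 lists, with 5hmC folds of 20.3 and 17.1 and 5mC folds of 53.9 and 63.0 in high and normal glucose. Rows of both marks filled nearly all of it at both glucose levels.

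The remaining 7 of the 10 strongest were chr11:118479267-118482360, chr7:98590631-98594127, chr1:145075064-145076498, chr12:6926649-6928801, chr4:3414378-3420653, chr19:14043327-14046131 and chr19:41938028-41940406. The region of chromosome 1 stood on a raised background, with expected 5hmC counts of 16.7 in high and 23.5 in normal glucose and folds of only 7.70 and 5.27. In the first region of chromosome 19 the summits of each mark kept their place, 7 bp apart between the glucose levels for 5hmC and 3 bp for 5mC, while the 2 marks peaked 1796 bp apart in high and 1800 bp apart in normal glucose. In the region of chromosome 4, the 5hmC and 5mC summits were 46 bp apart in high and 9 bp apart in normal glucose.

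The widest region with both marks lay on chromosome 17 from 80185840 to 80215006 and spanned 29167 bp. It held 5 5hmC rows in high and 7 in normal glucose and 9 5mC rows at each glucose level. Its 5hmC rows covered 21423 bp in high and 23666 bp in normal glucose, and its 5mC rows 22156 and 23180 bp. The next widest were chr9:139396000-139420258, chr8:144984063-145008311, chr20:56247095-56270718 and chr16:2123940-2146918. In the region of chromosome 9, 5hmC covered 8918 bp in high and 12441 bp in normal glucose, against 22721 and 22406 bp of 5mC. The region of chromosome 8 was the most evenly filled of these 5, with 20661 of its 24249 bp in all 4 lists. The region of chromosome 20 held the most rows, 33, and was the reverse of that of chromosome 9, with 20285 and 21627 bp of 5hmC and 9252 and 10185 bp of 5mC in high and normal glucose. Next in number of rows came the regions of chromosomes 17 and 9 just named, with 30 and 29 rows. They were followed by chr16:585823-607436 and chrX:153031850-153048870, with 27 rows each.

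Although the marks shared these regions, their summits lay over 100 bp apart in most of them. The rule did not use the positions of summits. Between the strongest 5hmC and the strongest 5mC row the median distance was 274 bp in high and 264 bp in normal glucose, and 269 bp over both. The summits of 1 mark stayed much closer between high and normal glucose, with a median of 73 bp for 5hmC and 49 bp for 5mC. Within 100 bp of each other were 27.9% (27.3 to 28.5) of the 5hmC and 5mC summits in high and 28.4% (27.8 to 29.0) in normal glucose, against 59.3% of the 5hmC summits and 72.5% (72.0 to 73.1) of the 5mC summits of the 2 glucose levels. Distances over 1000 bp between the marks were found in 14.4% of regions in high and 14.1% in normal glucose. In regions with 1 row in each list the medians between the marks were 192 and 184.5 bp, still over those of 65 bp for 5hmC and 48 bp for 5mC between the glucose levels. The spacing of the marks was thus larger than the shift of either mark between its 2 libraries, which differ in glucose level and are not replicates. The 5hmC summit lay under a 5mC row in 71.7% of regions in high and 71.6% in normal glucose, and the 5mC summit under a 5hmC row in 70.5% and 75.8%.

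**Figure D2:**
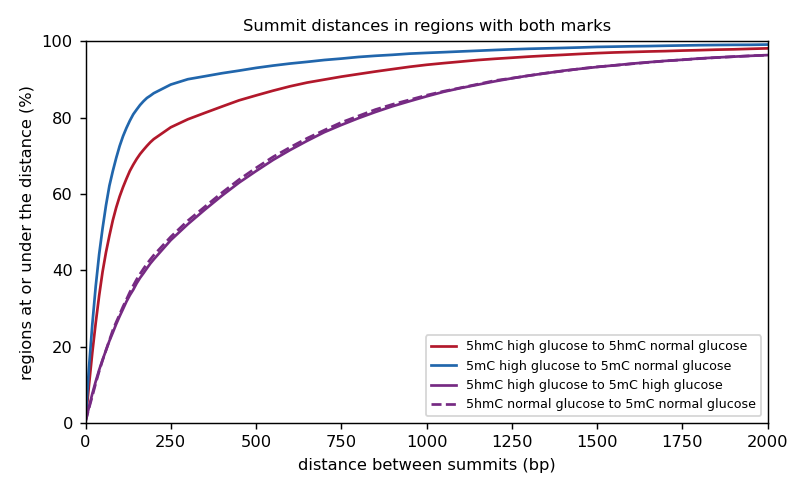
Cumulative share of the 23635 regions with both marks (vertical axis, %) by distance between the summits of 2 lists in bp (horizontal axis). The curves between the 2 marks rise slowly, with medians of 274 and 264 bp, while those between the glucose levels of 1 mark rise steeply, with medians of 73 bp for 5hmC and 49 bp for 5mC.

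The 5hmC summits of high and normal glucose lay further apart in these regions than in those with no 5mC row. In the regions with 5hmC and no 5mC, 81359 of 108421 summits (74.8% to 75.3%) were within 100 bp between high and normal glucose, with a median of 48 bp. For 5mC, the median was 49 bp with 5hmC and 49 bp without it. Regions with both marks are wider, and in those with 1 row in each list the share for 5hmC was 63.5% (62.8 to 64.3).

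The strength of the peaks is given as a description. The strongest 5hmC row of a region had a median fold of 4.96 in high and 5.22 in normal glucose, and a median -log10 p of 12.2 and 12.4. With rows of a -log10 p of at least 10 alone, the order of the -log10 p medians turned, to 20.1 in high and 19.1 in normal glucose. The summit of the strongest 5hmC row held 26 fragments in high and 24 in normal glucose at the median. The strongest 5mC row had a median fold of 10.5 in high and 9.93 in normal glucose and a median -log10 p of 20.5 and 18.4, from 21 and 18 fragments. In the regions with 5mC alone the medians of -log10 p were 11.8 in high and 10.4 in normal glucose, below those of the regions with both marks. For 5hmC alone the medians were 11.7 in high and 10.4 in normal glucose, closer to those with both marks. In 8407 regions, or 35.6%, the -log10 p was at least 10 in every list, and in 1959 it was at least 20. A -log10 p under 5 was found for 5hmC in 1708 regions in high and 1343 in normal glucose, for 5mC in 563 and 594 regions, and in all 4 lists in 2 regions.

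The rank of a region for one mark went only weakly with its rank for the other. The regions with both marks were ranked by -log10 p in each list, so that all 4 rankings had the same length. Across the 23635 regions Spearman's rho was 0.706 between the 5hmC lists and 0.892 between the 5mC lists. Between the marks it was 0.0689 in high and 0.109 in normal glucose. These are descriptions across regions that share libraries and a common width, and width itself went with rank, at a rho of 0.217 and 0.268 for 5hmC and 0.421 and 0.419 for 5mC in high and normal glucose. In the regions with 1 row in each list the values between the marks were 0.0367 and 0.0680. Among the highest 20% in every list were 728 regions, and among the lowest 20% in every list 319.

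**Figure D3:**
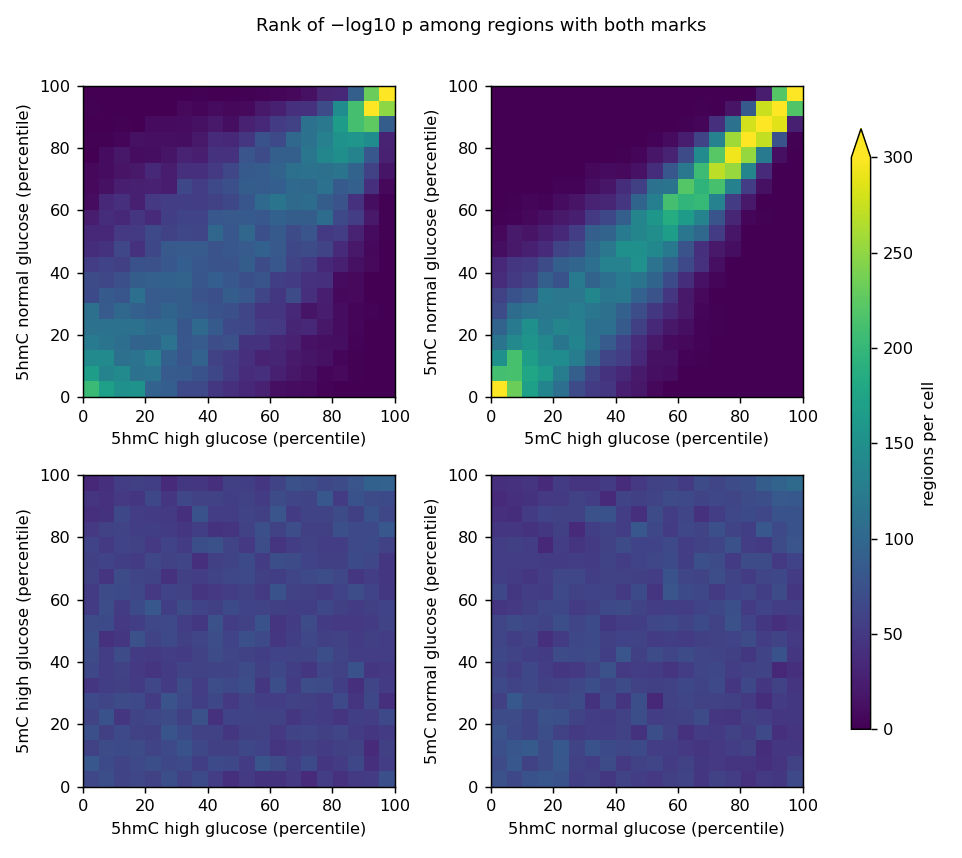
Rank percentile of -log10 p among the 23635 regions with both marks in 2 lists at a time, with colour for the number of regions per cell of 5 by 5 percentiles, from 0 to 300 and above. The regions lie along the diagonal between the glucose levels of 1 mark, with a rho of 0.706 for 5hmC and 0.892 for 5mC, and spread over the whole square between the marks.

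Single regions lay at the corners. The largest excess of 5hmC rank over 5mC rank was on chromosome 1 from 11099097 to 11102936, with 5hmC folds of 19.8 and 9.77 but 5mC folds of 3.51 and 2.93 in high and normal glucose. Its 5mC peaks rested on 7 fragments in high and 5 in normal glucose, and no base was common to all 4 lists. It was followed by chr19:23505375-23507298, chr6:34038509-34041652, chr2:236251962-236254836 and chr1:203495100-203496877. The largest excess of 5mC rank was on chromosome 7 from 30951214 to 30952226, where 5mC folds were 46.7 and 52.4 and 5hmC folds 2.20 and 2.81. The other 4 were chr10:134357273-134360188, chr16:30593432-30594738, chr1:10698222-10700543 and chrX:153067677-153070789. Of these 10 regions, each with 1 row in each list, those at the 5hmC end had 5 to 10 fragments at their 5mC summits and those at the 5mC end 9 to 15 at their 5hmC summits, so the weaker mark was close to the limit of what the lists hold.

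5hmC covered less of these regions in high glucose than in normal glucose, and 5mC about the same. The 5hmC rows covered 25.4 Mb in high and 29.0 Mb in normal glucose, or 1076 and 1227 bp per region, a ratio of 0.877. The ratio of a single region, high over normal glucose, had a median of 0.937. The 5mC rows covered 29.2 and 28.6 Mb, or 1235 and 1211 bp per region, with a median ratio of 1.01. 5hmC was shorter in high glucose in 13847 regions, or 58.6%, while it was shorter in 43.5% of all 139444 regions with 5hmC in both lists. It was longer in high glucose in 41.2%, against 56.2% of all. A difference of 1.5 times or more was found towards shorter 5hmC in 20.8% of the regions with both marks, against 11.4% of all, and towards longer 5hmC in 9.42%, against 11.5% of all. For 5mC, shorter rows in high glucose were found in 46.9%, as in 46.9% of all 68672 regions with 5mC in both lists, and longer ones in 52.8%, as in 52.8% of all. The shares past 1.5 times were 7.68% shorter and 9.57% longer, against 7.46% and 9.77% of all, so 5mC length in these regions was at the background.

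**Figure D4:**
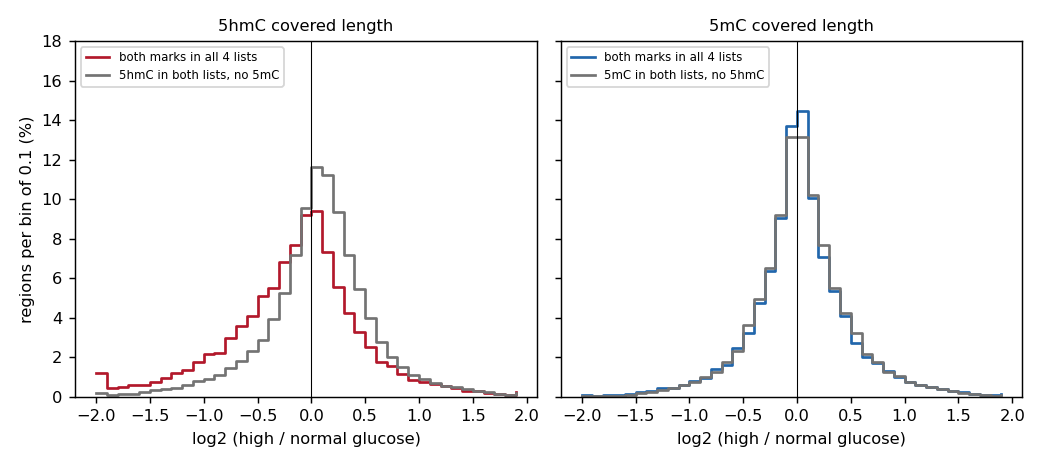
Covered length in high over normal glucose per region on a log2 scale (horizontal axis, values beyond 2 in the outermost bins) as a share of regions per bin (vertical axis, %). For 5hmC (left) the regions with both marks (median ratio 0.937) lie to the left of those without a 5mC row (1.06). For 5mC (right) the distributions with and without 5hmC rows nearly coincide.

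The regions with 5hmC in both lists and no 5mC row went the other way. Their 5hmC rows covered 65.6 Mb in high and 63.5 Mb in normal glucose, with a median ratio of 1.06, and were shorter in high glucose in 39.7%. Regions with 5hmC in both lists and a 5mC row at only 1 glucose level belong to neither kind. They were not set apart here, so whether they share the lower ratio is not shown. The median ratio was under 1 in the regions with both marks on 23 of 23 chromosomes and over 1 in those without 5mC on 23 of 23. It was lowest on chromosome 21 for the regions with both marks, at 0.905, and highest on chromosome 3, at 0.995. Among 1005 windows of 1 Mb with at least 5 regions of each kind, the median ratio of the regions with both marks was below that of the regions without 5mC in 820, or 81.6%. The values come from the same 2 libraries, and the expected count at the strongest 5hmC row had the same median in both kinds of region, 4.16 in high and 3.76 in normal glucose. In high glucose an expected count of at least 2 times the smallest was found at the strongest 5hmC row of 15.4% of the regions with both marks. It was found for 13.3% of all 5hmC rows of that list. In normal glucose the shares were 17.9% of the strongest rows and 15.7% of all rows. The part of the expected count in the ratio was not tested.

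The ratio moved with the length of 5hmC and with the strength of 5mC. All regions with 5hmC in both lists were split into 5 equal groups by 5hmC length. From the shortest to the longest group the median ratio was 1.09, 1.01, 0.957, 0.930 and 0.907 in the regions with both marks, and 1.12, 1.08, 1.05, 1.03 and 1.02 in those without 5mC. It was lower in the regions with both marks in each group, but in the 2 groups of shortest 5hmC it was above 1 in both kinds of region. The part of the longer minimal 5hmC row of the high-glucose list in the ratio of short regions was not tested. Split into 5 equal groups of 4727 by 5mC rank, the regions with both marks had a median 5hmC ratio of 0.979, 0.957, 0.940, 0.919 and 0.886 from the weakest to the strongest 5mC, with 5hmC shorter in high glucose in 52.8% of the weakest and 65.5% of the strongest group. Region width rose along with 5mC, with medians of 1115 and 2291 bp in the weakest and the strongest group, and its part in the trend was not tested. The 5mC ratio stayed between 1.01 and 1.02 over the 5 groups.

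The rank of 5hmC gave the same order as its length. All 139444 regions with 5hmC in both lists were ranked by -log10 p within each list. The median region with both marks stood at percentile 52.4 in high and at percentile 59.6 in normal glucose, and 57.3% of the regions ranked lower in high glucose, against 47.9% of the regions with 5hmC and no 5mC. By fold enrichment the percentiles were 52.3 and 58.7. Regions without 5mC stood at 49.4 in high and 47.9 in normal glucose. For 5mC, ranked over 68672 regions, the regions with both marks stood at 65.7 in high and 66.0 in normal glucose. In the regions with 1 row in each list the 5hmC percentiles were 48.1 and 54.6, and 56.2% ranked lower in high glucose.

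The regions with the largest shift in rank between the glucose levels were named among the regions with both marks. For 5hmC the largest excess in high glucose was found at chr20:50528846-50529605, with a fold of 6.95 in high and 2.36 in normal glucose, from 58 and 28 fragments. Its expected count was 7.49 in high and 11.3 in normal glucose, so the background also differed there. The next were chr20:52492989-52493916, chrX:152728529-152729705, chr1:154693124-154693735 and chr17:3775173-3777573. The expected count was higher in normal glucose in each of these 5 regions. In the other direction, chr9:33465808-33466759 had a 5hmC fold of 2.68 in high and 9.86 in normal glucose, from 16 and 41 fragments. Next came chr19:35549703-35552267, chr12:66275421-66276335, chr17:7553384-7554064 and chr14:105532083-105533772. The expected count was lower in normal glucose in each of these 5. It was also lower at the median of all regions with both marks, at 3.76 in normal and 4.16 in high glucose. In the region of chromosome 14 the counts were closest, 3.03 in high and 2.64 in normal glucose. These are the backgrounds of the 2 libraries. The 5hmC rows there covered 300 bp in high and 1690 bp in normal glucose.

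5mC ranks shifted less. A shift of 50 percentiles or more was found in 28 regions for 5mC, or 0.118%, and in 823 regions for 5hmC, or 3.48%. The largest excess of 5mC in high glucose was found at chr11:1542209-1543493, with a fold of 14.4 in high and 4.12 in normal glucose, from 24 and 6 fragments. The 2 summits of 5mC lay 455 bp apart there, and no base was common to all 4 lists. This region was followed by chr10:118429365-118430348, chr16:72821694-72822891, chr7:123301885-123303075 and chr12:133109161-133111175. The expected count was lower in high glucose in those of chromosomes 16 and 12 and higher in the others. The largest excess in normal glucose was at chr5:133190021-133190851, with a fold of 3.71 in high and 13.0 in normal glucose, from 6 and 20 fragments. The regions chr3:33432849-33433787, chr15:44186380-44187156, chr2:70372748-70373962 and chr17:45145715-45146525 came next. In all of these, that of chromosome 5 included, the expected count was higher in high glucose, as 2.74 against 0.794 on chromosome 3. It was also higher at the median of all regions with both marks, at 1.01 in high and 0.851 in normal glucose.

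Regions with both marks made up the largest share of union regions on chromosomes 19, 16 and 17, and many lay near the outermost listed rows of their chromosome. On chromosome 19, known for its density of genes and zinc finger clusters, 2464 of 12869 union regions had both marks, or 19.1% (18.5 to 19.8), which came to 41.9 per Mb. Chromosome 16 had 12.4% (11.9 to 13.0) and chromosome 17 had 11.6% (11.1 to 12.1). The lowest shares were 3.53% (3.15 to 3.96) on the X chromosome, 3.89% (3.63 to 4.17) on chromosome 3 and 4.33% (4.01 to 4.68) on chromosome 6. Those chromosomes had 1.88, 3.83 and 3.62 such regions per Mb, in this order. Union regions of any kind also lay denser on chromosome 19, with 12869 in 58.9 Mb, than on X, with 8096 in 152 Mb. The part of this density in the shares by chromosome, by distance to the outermost listed row and by 1 Mb window was not tested.

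**Figure D5:**
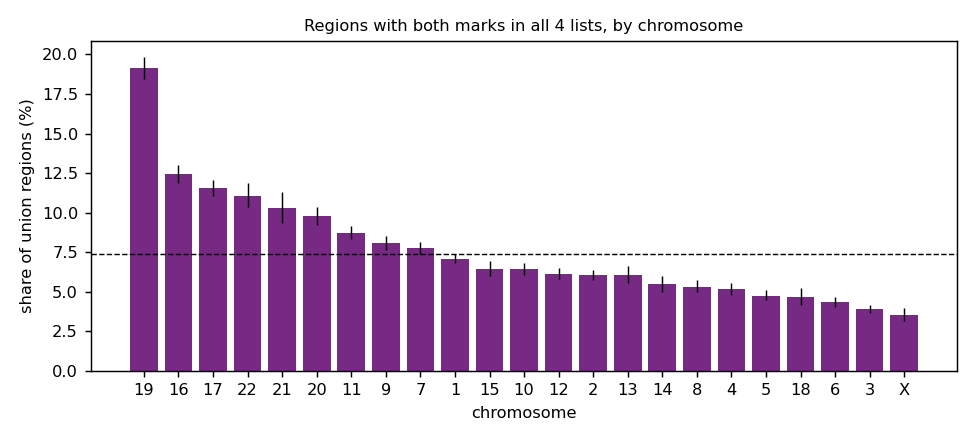
Share of the union regions of each chromosome that had both marks in all 4 lists (bars, %), with Wilson 95% intervals, from the highest to the lowest. Chromosome 19 stands at 19.1%, above chromosome 16 at 12.4%, and the X chromosome at 3.53%, and the dashed line marks the 7.41% of all union regions.

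Within 5 Mb of the outermost listed row of their chromosome lay 30.4% (29.8 to 30.9) of the regions with both marks, against 9.57% (9.40 to 9.75) of the regions with 5hmC alone, 17.9% (17.5 to 18.3) of those with 5mC alone and 13.1% of all union regions. Within 1 Mb the shares were 7.80%, 1.59%, 4.16% and 2.64%. An outermost listed row need not lie at the tip of a chromosome. The regions with both marks had a median 5hmC ratio of 0.896 within 5 Mb of these outermost rows and 0.954 further in, where the regions with 5hmC alone had 1.05 and 1.06.

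The regions with both marks lay in groups. Of the 2875 windows of 1 Mb with any union region, 902 had none with both marks, and 220 windows held 50% of the regions with both marks. The number of windows that hold 50% was not counted for all union regions, which are themselves unevenly placed. The gap to the next region with both marks was under 5 kb in 34.5% of cases, against 28.9% for the regions with 5hmC alone, although these are over 4 times as many, and 18.3% for those with 5mC alone. The 5 windows with the most regions with both marks were on chromosome 17 from 79000001 (125 of 343 union regions) and from 80000001 (124 of 348), chromosome 7 from 1 (118 of 306), chromosome 9 from 139000001 (111 of 320) and chromosome 16 from 85000001 (110 of 373). In all 5 the median 5hmC ratio of the regions with both marks was under 1, from 0.758 on chromosome 9 to 0.915 in the second window of chromosome 17. In each of these windows 5hmC rows also covered a smaller part in high than in normal glucose, as 22.8% against 32.0% in the first of chromosome 17. How far the ratio of the regions with both marks follows that of the whole window was not tested. No genome or gene annotation on hg19 was used here, so positions stand without gene names or base sequences.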

How the data were processed

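Each antibody library has a deposited list of peaks. Its rows hold the authors' display score (not used), their fold enrichment (a ratio over background), their p-value and q-value as -log10, and where the summit lies. Tools named in the submitters' processing notes, without roles, were Bowtie 1.0.0, bedtools 2.17.0, CASAVA 1.8.2 and SAMtools 0.1.18, and the build was hg19. No source used here names the peak caller or its control. The deposited 5hmC lists reached a q-value of 0.0498 in high and 0.0496 in normal glucose, and the 5mC lists 0.0496 and 0.0488. Inside the lists, peaks of high glucose are named Ctrl and those of normal glucose Low, and the samples' labels were followed. The 2 inputs were not analysed here. Coordinates are 1-based on hg19.

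The lists held 191394, 210081, 100234 and 91885 rows, of which 80, 82, 14 and 15, on Y or mitochondrial DNA, were left out. Joining, counting and ranking used Python 3.11.15, NumPy 2.4.6 and pandas 2.3.3, and intervals SciPy 1.17.1. On simulated rows, joining gave the same regions as bedtools 2.31.1. The strongest row of a region in a list is that of highest -log10 p. Fragments t and expected count L at a summit were taken as the values for which the fold equals (t + 1)/(L + 1) and the p-value equals a Poisson tail above t, to within 1% of the step to the next whole number. Such values were found for 100% of the rows used, and on simulated rows the search recovered 100% of 5000 counts per mark. These counts are inferred. Folds and p-values are the authors' own per peak and were not divided between lists. Covered length is the summed length of a list's rows in a region, and moves with how much was called in the library.

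The members and the rules for comparing and naming regions were chosen with earlier results of these data known. Named were the 10 strongest regions in all lists, the 5 widest, the 5 with the most rows, the 5 with the largest rank difference in each direction between marks and between glucose levels, those at the border of the overlap rule, and the extreme chromosomes and windows. Alternatives varied the rows kept, the joining distance and the measure. The covered-length ratio and its alternatives were added after the data were seen.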

Additional observations from a re-analysis of the deposited data

How the results depend on the processing

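With 1 library per mark and glucose level, no value has a replicate behind it. No paired analysis was possible because each group has 1 library and the labels give no replicate numbers. The median covered-length ratios stayed on their side of 1 under the alternatives run. At a -log10 p of at least 10 the order of high and normal glucose turned for the share of 5hmC rows in the regions (10.01% and 11.01%) and for the median 5hmC -log10 p. The causes of the changes below were not tested. With a -log10 p of at least 10, 8388 regions had both marks, which was 5.29% of union regions with 13.6% of rows. Of these regions 90.8% had a base in all lists and 74.4% had 1 row per list. The summit distance between marks was then 315 bp, and the median -log10 p 20.1 and 19.1 for 5hmC and 34.6 and 30.7 for 5mC in high and normal glucose. Chromosome 19 had 14.2% and X 2.28%, and rho was 0.642 for 5hmC, 0.900 for 5mC and 0.0867 between marks in normal glucose. With equal numbers of top rows the values were 11663 regions, 5.70%, 14.6%, 90.2%, 73.0% and 284 bp, in the same order. A -log10 q of at least 2 gave shares of 7.29% of regions and 18.5% of rows, and autosomes alone 7.51% and 18.9%. Joining within 500 bp gave 8.75% of regions, 24.1% of rows, 77.9% with a common base and 49.6% with 1 row per list. Requiring 100 bp of overlap gave 7.17%, 18.2%, 91.3% and 70.8%. Regions with 1 row per list had a summit distance of 188 bp and rho of 0.682 for 5hmC, 0.855 for 5mC, and 0.0367 and 0.0680 between marks in high and normal glucose. Ranked by fold, rho was 0.588 for 5hmC and 0.877 for 5mC. Over all rows the median -log10 p was 10.9998 and 11.1 for 5hmC and 18.98 and 16.98 for 5mC in high and normal glucose. By covered length, regions with both marks made up 43.2% on chromosome 19 and 10.6% on X. The alternatives for the covered-length ratio were chosen after seeing the data, and gave a median 5hmC ratio of 0.949 at a -log10 p of at least 10, 0.959 with equal numbers of rows, 0.930 when joined within 500 bp and 0.969 with 1 row per list. The 5mC ratio was 1.02 when joined within 500 bp, and the 5hmC ratio without 5mC 1.05 at a -log10 p of at least 10.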
